A study of Rattus norvegicus with 62 samples.

Results

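The growth hormone and IGF axis was read through 10 genes, Igf1, Igfals, Igfbp1, Igfbp2, Igfbp3, Ghr, Prlr, Socs2, Cish and Stat5b, in rat liver. They were picked by gene symbol, as every probe set whose only annotated gene was one of them, which gave 17 of the 20826 probe sets with 1 symbol and of 31099 probe sets in all. Livers came from males of the outbred Sprague-Dawley rat stock Crj:CD(SD)IGS, in a model of chemical liver carcinogenesis with an initiation and a promotion stage. Rats received an initiator or methylcellulose (MC), and after a pause phenobarbital (PB) at 500 ppm in drinking water, or plain water. Each of 31 animals gave liver at partial hepatectomy (5w), which PB groups reached after 1 week of PB, and again at the end (10w), after 6 weeks of PB, so 62 arrays were measured in 14 groups. The initiated groups were diethylnitrosamine at 3 mg/kg (DEN3/PB, 5 animals) and at 30 mg/kg (DEN30/PB, 4 animals), thioacetamide at 45 mg/kg (TAA/PB, 5 animals), methapyrilene at 100 mg/kg (MP/PB, 5 animals) and acetaminophen at 1000 mg/kg (APAP/PB, 4 animals). The groups without an initiator were MC/PB and MC/water, with 4 animals each. The protocol exempts no group from the hepatectomy, so no 10w group shows liver without surgery.

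Growth hormone from the pituitary binds its receptor GHR on hepatocytes and, through the kinase JAK2, activates the transcription factor STAT5B. STAT5B drives transcription of Igf1, the endocrine growth factor of the liver, of Igfals, and of Socs2 and Cish, whose proteins damp the same signal. In blood most IGF-1 travels in a complex with IGFBP3 and the acid-labile subunit encoded by Igfals. Within rat liver Igfbp3 is known as a product of non-parenchymal cells, whereas Igf1 and Igfals are products of hepatocytes. IGFBP1 and IGFBP2 bind IGF outside that complex, and insulin lowers Igfbp1 transcription, with FOXO1 acting in the opposite direction. Because male rats secrete growth hormone in pulses, STAT5 activity in male liver alternates between high and low within hours.

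Promoter windows from RefSeq (rat build GRCr8, 250 bases before to 50 after the annotated start) were held for 9 of the 10 genes, with a second start for Prlr. The Cish window is shown because Cish is a direct STAT5 target and among the members that differed most between animals; it lies at chr8:116850719-116851018 on the plus strand, with each TTCNNNGAA, the letters of a STAT-type site, in capitals. The Igfbp1 window, at chr14:86261027-86261326 on the plus strand, is shown for its CAAAACA, the letters of a forkhead (FOXO-type) element, in capitals, because Igfbp1 was among the members higher at 10w.
Cish promoter: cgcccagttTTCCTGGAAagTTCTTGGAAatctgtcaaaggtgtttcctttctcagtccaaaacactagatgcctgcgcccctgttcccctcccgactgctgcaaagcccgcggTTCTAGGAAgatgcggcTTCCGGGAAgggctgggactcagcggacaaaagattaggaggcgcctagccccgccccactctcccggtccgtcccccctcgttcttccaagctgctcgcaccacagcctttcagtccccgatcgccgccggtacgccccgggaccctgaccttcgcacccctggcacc
Igfbp1 promoter: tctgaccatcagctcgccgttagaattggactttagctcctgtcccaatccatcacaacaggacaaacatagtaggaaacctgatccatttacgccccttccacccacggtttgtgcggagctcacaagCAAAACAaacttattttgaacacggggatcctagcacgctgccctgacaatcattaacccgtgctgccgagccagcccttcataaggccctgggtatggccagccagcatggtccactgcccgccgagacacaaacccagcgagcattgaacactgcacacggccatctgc
Both strands were searched; TTCNNNGAA reads the same on either, and the 2 motifs did not overlap in these windows. The Cish window held TTCNNNGAA 4 times, beginning 241, 230, 136 and 119 bases before the start. Of 33469 RefSeq windows of the same length, 8.87% held at least 1 such match, 0.0239% held at least 3, and 2 windows held at least 4. The second Prlr window held 1 match, 176 bases before the start, and the windows of Igf1, Igfals, Igfbp1, Igfbp2, Igfbp3, Ghr and Stat5b held none. CAAAACA was found 1 time in the Igfbp1 window, 121 bases before the start, as well as in the windows of Igf1, Cish and the first Prlr start, and in 6.28% of all windows. These matches describe letters in a window, and binding was not measured here.

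The measured values are linear MAS5 signals, which cannot be compared in level between genes, because probe sets differ in brightness per transcript. Differences are given as differences of log2(signal + 25), in which -1 is close to a 2-fold reduction for well-measured genes. A gene was called at a Benjamini-Hochberg adjusted p under 0.05 over all genes tested in limma, a linear model with variances moderated over genes. All 17 probe sets reached the signal minimum of 100 on at least 4 arrays, and for 5 genes with several probe sets the brightest on average is the main one. The hepatocyte marker Alb had a signal of at least 39383 on every array. Array medians lay between 99.3 and 125.7. The arrays were divided into a pair of sets by the sign of the leading principal component of the residuals around group means. That component held 11.8% of their variation. Because residuals are centred within each group, both sets occur in every group by construction. Set 1 held 30 arrays, those of replicates 1 and 3 and of DEN3/PB replicate 5, and set 2 held 32, those of replicates 2 and 4 and of TAA/PB and MP/PB replicate 5, the same at both weeks. The labels do not say what the sets are, so results that touch them are given within each set.

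On their main probe sets the 10 genes fell into a steady and a variable group. Igf1 signals spanned 24461 to 42801 over the 62 arrays, a 1.75-fold range, and Ghr, Igfals and Stat5b spanned ranges of 1.94-, 2.21- and 2.11-fold. Igfbp3 spanned 1289 to 3623, a 2.81-fold range. By contrast, Igfbp1 spanned a 28.0-fold range (181 to 5064). Socs2 reached 1613, Prlr 1579 and Cish 1389, and 3, 1 and 3 of their arrays were under the signal minimum of 100, where a probe set is read least well. The SD within groups was 0.19 on the log2 scale for Igf1, at the 30.3rd percentile of all genes tested, while it was 1.12 for Socs2 and 1.04 for Cish (both at the 99.8th percentile), 0.89 for Igfbp1 (99.6th) and 0.76 for Prlr (98.9th). The median SD over genes was 0.24. Other probe sets did not all keep to this split. The second Igfbp3 probe set spanned a 5.02-fold range (SD 0.63, 95.9th percentile), and the second Ghr probe set a 2.98-fold range (SD 0.37, 78.6th). The other Igf1 probe sets spanned 2.08- and 1.69-fold ranges. Igfbp2 lay between (0.50, 89.9th percentile), but 18 of its 62 signals were under 100. The 14 group means of each of the 10 genes were put in order. All 13 pairs of neighbours overlapped in their signals and differed by less than the larger SD of the pair. Neighbours in a sorted order lie close by construction, so this does not show that the groups were alike. The ends of the order were 10w DEN3/PB at the low end and 5w MP/PB at the high end for Igf1 (geometric means 28500 and 37710), 10w MC/water and 5w DEN30/PB for Igfbp3 (1573 and 3085), 10w TAA/PB and 10w MC/water for Ghr (8771 and 11350), and 10w MP/PB and 5w MC/PB for Cish (176 and 944).

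**Figure D1:**
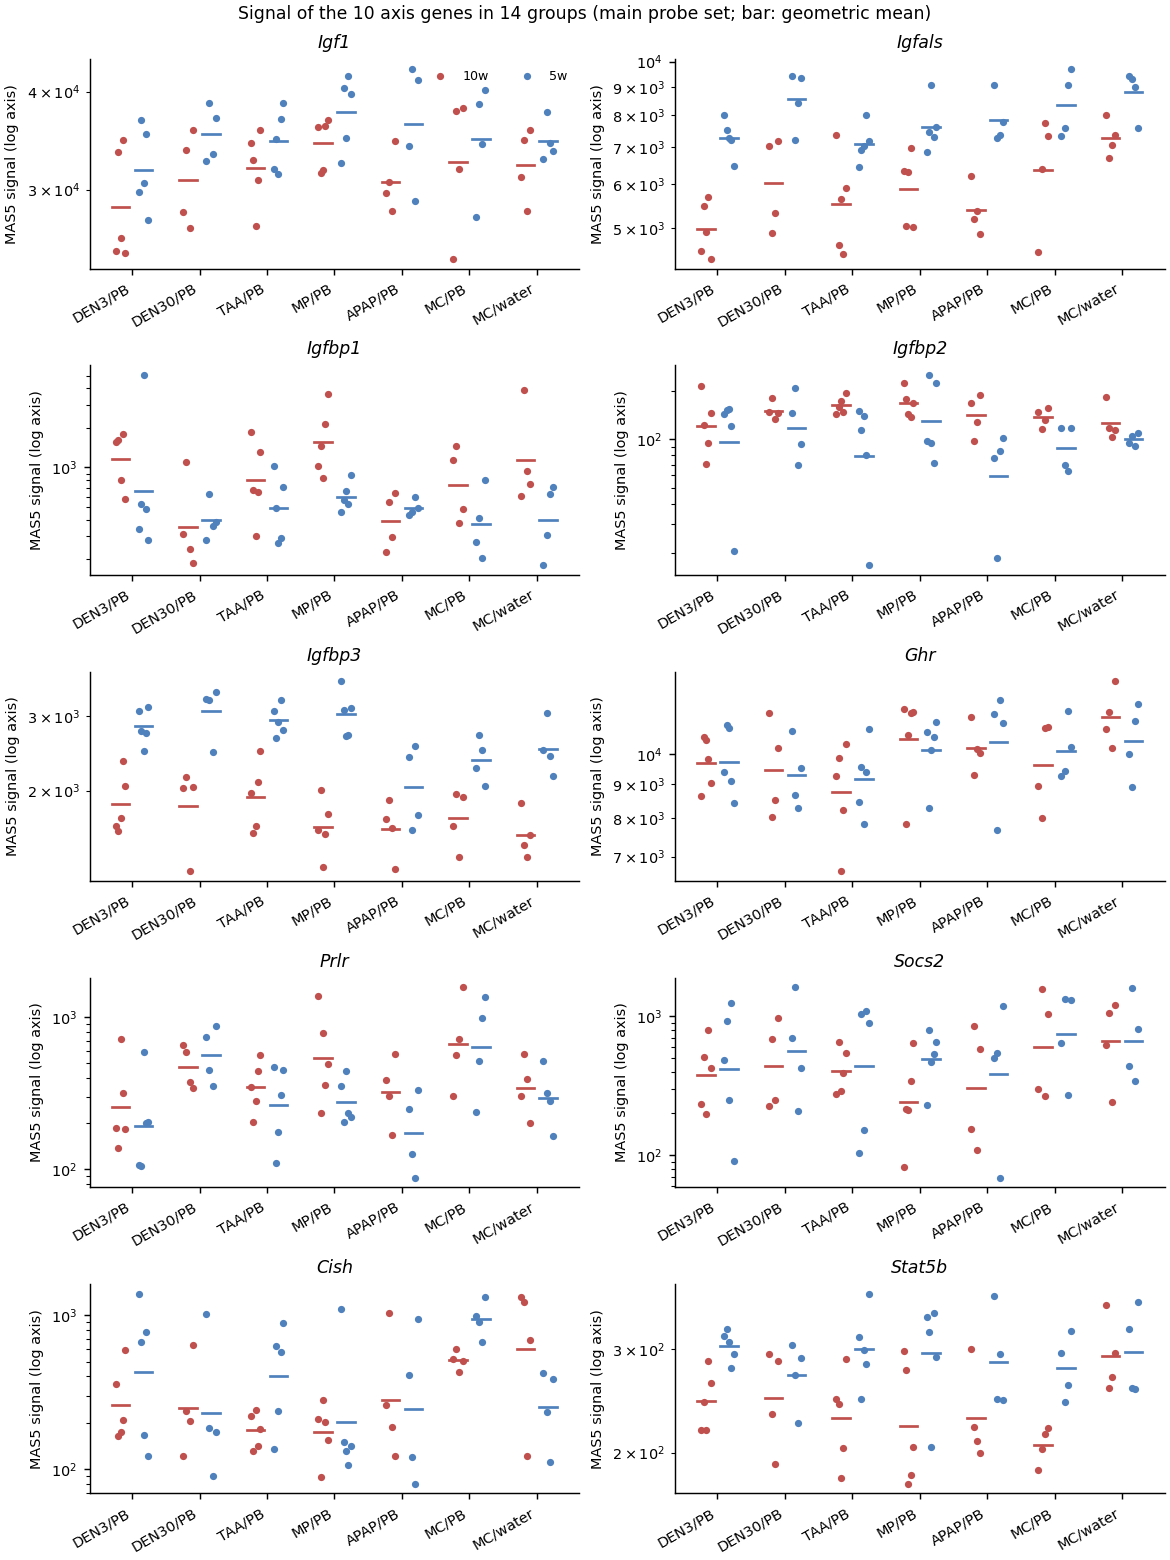
MAS5 signal of the main probe set of each axis gene on a log axis, by treatment, with 10w in red left of 5w in blue. Points are animals and bars are geometric means. Igfbp3 and Igfals sit lower at 10w in all 7 treatments, while Socs2, Cish, Prlr and Igfbp1 scatter the most within groups.

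Between 10w and 5w the circulating IGF complex fell at the transcript level, most of all Igfbp3. In the mean over all 7 treatments, a comparison added after the data had been seen, Igfbp3 fell by 0.61 (SE 0.06, adjusted p = 1.12e-12), Igfals by 0.43 (SE 0.05, adjusted p = 1.2e-09), Stat5b by 0.26 (SE 0.06, adjusted p = 0.000284) and Igf1 by 0.15 (SE 0.05, adjusted p = 0.012) on the log2 scale in limma. Igfbp1 rose by 0.68 (SE 0.22, adjusted p = 0.0158) and Igfbp2, whose signals under 100 were mostly at 5w, by 0.46 (SE 0.13, adjusted p = 0.00521). Thus 6 of the 10 members were called, 2 higher and 4 lower at 10w, where 24.7% of all genes tested were called. The members' median difference was -0.18, against 0.00 for all genes. Ghr did not pass, at 0.00 (95% interval -0.09 to 0.10), with the narrowest interval of the 4 members not called. Socs2 (-0.32, -0.86 to 0.22), Cish (-0.21, -0.71 to 0.30) and Prlr (0.34, -0.03 to 0.71) had wide ones. At 10w the animals were 5 weeks older and had regrown liver after the surgery, which cannot be told apart. Longer PB was a further difference in every treatment but MC/water. Nor can fewer cells of a type and less RNA per cell, since whole liver was measured.

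Igfbp3 encodes the main IGF carrier of blood. In MP/PB livers its signals were 1611, 2005, 1318, 1577 and 1759 at 10w, against 3623, 3095, 2694, 2706 and 3137 at 5w. DEN30/PB livers gave 2024, 2154, 1289 and 2038 at 10w, against 3285, 3264, 2468 and 3421 at 5w. TAA/PB livers gave 1971, 1587, 1652, 2089.7 and 2484 at 10w, against 3077, 2656, 2902, 3275 and 2773 at 5w. In each of these 3 treatments every animal at 10w lay below every animal at 5w. For DEN3/PB livers the Igfbp3 signals were 1648, 1604, 1719.8, 2349 and 2054 at 10w, against 3086, 2767, 2480.3, 2735 and 3149 at 5w. MC/PB livers had 1652, 1960, 1394 and 1931 at 10w, against 2258, 2709.9, 2494 and 2048 at 5w. MC/water livers had 1873, 1491, 1395 and 1569.7 at 10w, against 2498, 3039, 2409 and 2164 at 5w. Here too the weeks did not overlap, also without phenobarbital. Only APAP/PB livers overlapped, with 1717, 1903, 1635 and 1307 at 10w, against 2405, 1615, 2542 and 1754 at 5w. That group held the single animal of 31, replicate 2, whose Igfbp3 signal was higher at 10w. How many of all genes lacked overlap between the weeks was not counted, here or for Igfals and Stat5b below.

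By treatment, Igfbp3 was called in MP/PB (-0.88, SE 0.14, adjusted p = 7.92e-05), DEN3/PB (-0.60, SE 0.14, adjusted p = 0.00594) and TAA/PB (-0.59, SE 0.14, adjusted p = 0.0105) in limma. It was not called in DEN30/PB (-0.74, adjusted p = 0.064), MC/water (-0.66, adjusted p = 0.0605), MC/PB (-0.45, adjusted p = 0.148) or APAP/PB (-0.32, adjusted p = 0.361). These treatments were not tested against each other, apart from PB by time for MC/PB against MC/water, in which Igfbp3 differed by 0.21 (95% interval -0.22 to 0.64, adjusted p = 1). With the animal as a block, Igfbp3 was also called in MC/water (adjusted p = 0.0028), MC/PB (0.0251) and DEN30/PB (0.00191). The TAA/PB call was lost without 10w replicate 2 (adjusted p = 0.0594) or 10w replicate 3 (adjusted p = 0.0522). Set 1 alone gave -0.73 over all treatments and set 2 gave -0.50, but within 1 set no single treatment passed. Its second probe set read 0.41 lower at 10w over all treatments (adjusted p = 0.0454) and was 0.97 lower in set 1 than in set 2, in 14 of 14 groups, whereas the main one differed by 0.05 between the sets.

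Markers of sinusoidal endothelium were mostly lower at 10w too. Over all treatments 5 of 6 measured ones were called lower at 10w and 0 higher, where 12% of all genes were called lower and 12.6% higher, among them Kdr, the VEGF receptor (-0.37), and Stab2, a scavenger receptor (-0.39). The summed signal of the 6 markers was 8150 to 12438 at 10w (median 10133), against 10526 to 14747 at 5w (median 12416), and the lowest signal of Kdr on any array was 2289. Of 7 stellate cell markers, 4 were called lower, such as Col1a1 (-0.34), and 1 higher, Rgs5 (0.25), with sums of 6446 to 11653 at 10w (median 7931) and 6114 to 11574 at 5w (median 9361). Of 5 Kupffer cell markers 0 were called, with 1 at an unadjusted p under 0.05, as were 3775 of 10910 genes. The median difference of these 5 markers was 0.11. Their sums were 5215 to 13004 at 10w (median 9533) and 6098 to 12373 at 5w (median 8470). Of 5 hepatocyte and 3 lymphocyte markers 0 were called, and of 3 cholangiocyte markers 1 was called higher and 1 lower. No relation of these markers to Igfbp3 was computed, and the part of these cell types in the Igfbp3 result was not tested.

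Igfals, which encodes the acid-labile subunit, was lower at 10w in 30 of 31 animals. DEN3/PB livers had Igfals signals of 4549, 5472, 4919, 5698 and 4396 at 10w, against 8009.7, 7536, 7282, 7214 and 6469 at 5w. APAP/PB livers had 6202, 5191, 5369 and 4884 at 10w, against 9082, 7270, 7365 and 7769 at 5w. In both treatments, and in DEN30/PB livers with 7036, 4905, 5314 and 7177 at 10w, against 9402, 7214, 8418 and 9335 at 5w, the weeks did not overlap. Igfals was called in DEN3/PB (-0.55, SE 0.12, adjusted p = 0.00499) and in APAP/PB (-0.54, SE 0.14, adjusted p = 0.0238) in limma, and not in the other 5 treatments, where differences ran from -0.50 in DEN30/PB to -0.27 in MC/water. MC/water livers had 8011, 6706, 7067 and 7369.5 at 10w, against 9429.8, 9292, 9018 and 7601 at 5w. MC/PB livers had 4525, 6386, 7747 and 7334 at 10w, against 7329.7, 7576, 9075 and 9716 at 5w. MP/PB livers had 6348, 5054, 6306, 6967 and 5019 at 10w, against 6857, 7472, 9058, 7304 and 7613 at 5w. The weeks overlapped in these groups, and in TAA/PB livers, where 1 animal of 5 was higher at 10w, with 7376, 4663, 5641, 4487 and 5901 at 10w, against 6454, 6913, 7042, 8023 and 7177 at 5w.

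With the animal as a block, Igfals was also called in MC/PB (adjusted p = 0.0282), DEN30/PB (0.0131), TAA/PB (0.0196) and MP/PB (0.0181). The APAP/PB call of Igfals was lost without 10w replicate 2 (adjusted p = 0.0873), 10w replicate 4 (0.0946), 5w replicate 1 (0.129) or 5w replicate 4 (0.0532). Over all treatments Igfals was -0.40 in set 1 and -0.43 in set 2. The counts of members called, all lower at 10w, were thus 2 in DEN3/PB (2.9% of all genes called), 1 in TAA/PB (1.76%), 1 in MP/PB (1.34%) and 1 in APAP/PB (1.47%). They were 0 in MC/PB (1.31%), MC/water (0.0458%) and DEN30/PB (0% of genes), with 3, 3 and 2 members at an unadjusted p under 0.05. Of 10910 genes, 1251, 711 and 874 were under that unadjusted p in these treatments. With the animal as a block the counts of members called became 3 in MC/PB (4.84% of all genes called), 1 in MC/water (1.41%) and 2 in DEN30/PB (1.46%). The block gave 2 in DEN3/PB (8.82%), 3 in TAA/PB (6%), 3 in MP/PB (4.89%) and 1 in APAP/PB (6.33%).

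Stat5b encodes the factor that carries the growth hormone signal to DNA, and Igf1 the hormone itself. Stat5b was lower at 10w in 27 of 31 animals. MC/PB livers had Stat5b signals of 187, 203, 215 and 220.5 at 10w, against 296, 244, 261 and 322 at 5w, without overlap. MC/water livers had 356, 258, 269 and 296 at 10w, against 324, 257, 256 and 361 at 5w, which overlapped. Differences in Stat5b ran from -0.40 in MC/PB to -0.02 in MC/water, with 0 calls by treatment. With the animal as a block it was called in MC/PB (adjusted p = 0.0488), TAA/PB (0.0416) and MP/PB (0.0381). The difference between the changes in MC/PB and in MC/water was -0.38 (95% interval -0.82 to 0.06, adjusted p = 1). Igf1 was lower in 28 of 31 animals, at 24461 to 38125 at 10w and 27443 to 42801 at 5w, so the weeks overlapped throughout; the difference by treatment ran from -0.25 to -0.10, with 0 calls. The other 2 Igf1 probe sets were lower by 0.25 (adjusted p = 3.7e-05) and 0.20 (adjusted p = 6.96e-06) over all treatments, in the fit of all probe sets (21.6% called). Igf1 was -0.14 in set 1, where it was not called (adjusted p = 0.0738), and nor were Stat5b (-0.27, 0.0808), Igfbp1 (0.40, 0.552) or Igfbp2 (0.50, 0.0893).

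The small binding proteins ran the other way. Igfbp1 was higher at 10w in 25 of 31 animals and Igfbp2 in 24. MP/PB livers had Igfbp1 signals of 1030.2, 1450.5, 836, 2142 and 3634 at 10w, against 458, 566, 659, 524 and 882 at 5w. MC/water livers had 603, 3885, 944 and 743 at 10w, against 181, 308, 629 and 709.7 at 5w. Animals overlapped between weeks in both, although each of these 9 animals was higher at 10w. In DEN3/PB livers 4 of 5 animals were higher at 10w, with 1567, 1608, 809.7, 1809.5 and 580.1 at 10w, against 339, 523, 5064, 487 and 282 at 5w, the exception being replicate 3. Igfbp1 differences ran from -0.30 in APAP/PB to 1.45 in MC/water and Igfbp2 differences from 0.19 in DEN3/PB to 0.91 in APAP/PB, none called by treatment in limma. Within sets Igfbp1 was 0.40 in set 1 and 0.98 in set 2, and Igfbp2 0.50 and 0.39. Igfbp2 was called in neither set alone (adjusted p = 0.0893 and 0.158). Every 5w group had 1 to 3 animals with an Igfbp2 signal under 100. At 10w only APAP/PB (1 animal) and DEN3/PB (2 animals) had any. The size of the Igfbp2 rise thus rests in part on poorly read 5w values.

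**Figure D2:**
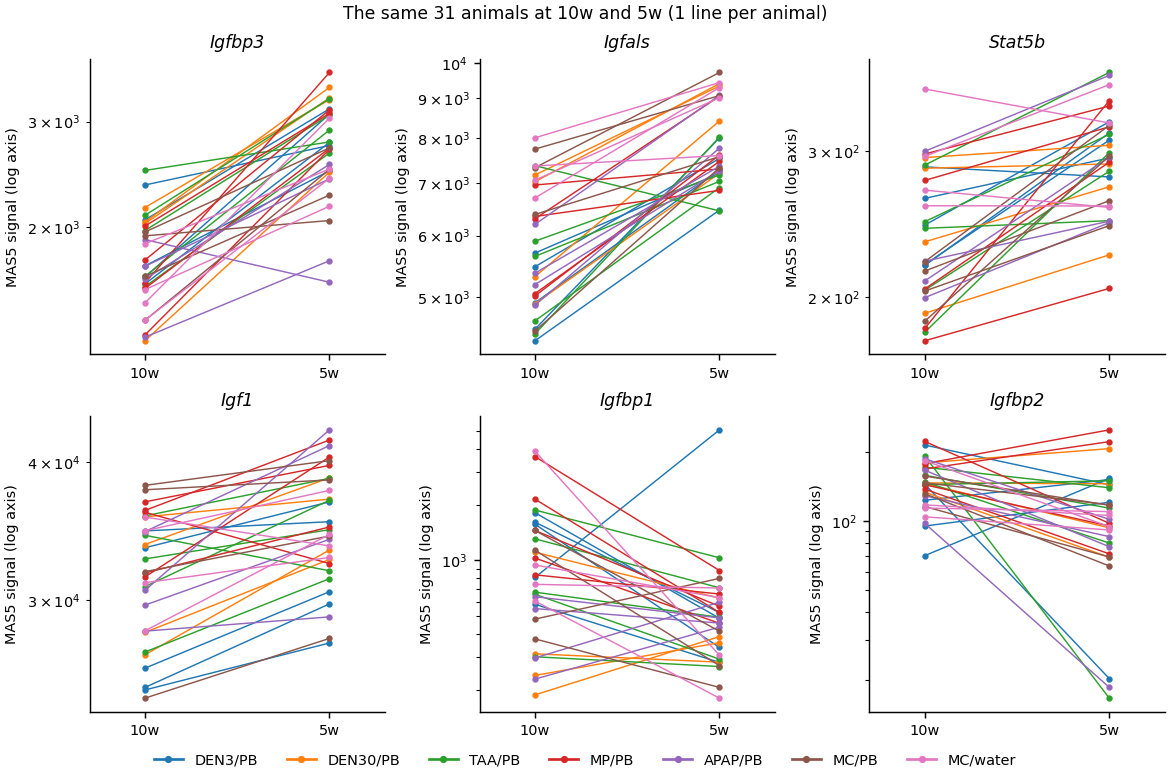
Each line joins the 10w and 5w signals of 1 animal, coloured by treatment, on log axes. Igfbp3 and Igfals were each lower at 10w in 30 of 31 animals, Igf1 in 28 and Stat5b in 27, while Igfbp1 was higher at 10w in 25 and Igfbp2 in 24.

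Neither receptor passed on its main probe set. Ghr signals were 6648 to 12875 at 10w and 7687 to 12068 at 5w, and 16 of 31 animals were higher at 10w. Both Ghr probe sets gave differences of 0.00 and -0.01. Prlr, the prolactin receptor, which is known as higher in female than in male rat liver, was higher at 10w in 25 of 31 animals. Its main probe set did not pass over all treatments in limma (0.34, adjusted p = 0.179). A second one did (0.78, adjusted p = 0.012) and the remaining one did not (0.54, adjusted p = 0.0795), so the probe sets disagree on the call. The second one was under a signal of 100 on 18 arrays, more of them at 5w than at 10w, with a lowest value of 6.98. The remaining one was under 100 on 8 arrays and the main one on 1. The size of the 0.78 rise thus rests in part on poorly read 5w values. Cish and Socs2, the feedback inhibitors, were lower at 10w in 15 and 21 of 31 animals.

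Other genes of the pathway were compared between 10w and 5w over all treatments, against the 24.7% of all genes called there. Of 11 measured IGF ligands, receptors and further binding proteins, 1 was called lower, Igfbp5 (-0.27, adjusted p = 0.00422), and 0 higher. Among 21 genes of growth hormone and insulin signalling 2 were called higher and 2 lower, a share below that of all genes, as was that of the IGF list. Irs2, an insulin receptor substrate, was higher by 0.33 (adjusted p = 0.00226), and Akt1, a kinase below it, by 0.12 (adjusted p = 0.0296). Socs6 fell by 0.12 (adjusted p = 0.000186) and Irs1 by 0.24 (adjusted p = 0.0168). Of 9 genes known as male-biased in rat liver 5 were called lower and 0 higher (12% of all genes were called lower), led by Hao2, a peroxisomal hydroxyacid oxidase (-0.59, adjusted p = 3.94e-12), and Obp3, an alpha-2u globulin relative (-0.98, adjusted p = 3.48e-06). Of 5 female-biased genes Cyp2a1 was higher (0.78, adjusted p = 7.27e-09) and Cyp2c12 lower (-1.52, adjusted p = 3.74e-05). Of 4 genes that insulin is known to suppress, Ppargc1a (0.50, adjusted p = 7.16e-05) and Pck1, the gluconeogenic PEP carboxykinase (0.19, adjusted p = 0.0149), were higher and Pdk4 lower (-0.45, adjusted p = 0.000647). Ppargc1a signals were low, with a median of 123 and a lowest value of 46.1. The Cyp2c, Cyp2a and Obp3 genes have close relatives, so their probe sets may read more than 1 transcript.

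Within a week, no member was called for phenobarbital or for any initiator on its main probe set, while a second probe set of Cish was called in all PB groups at 10w. Over 14 comparisons the 10 members gave 140 tests in limma, of which 0 passed and 24 had an unadjusted p under 0.05. These came from Cish (7), Prlr (6), Igfals (4), Igfbp3 (3), Stat5b (2), Ghr (1) and Socs2 (1). Over all genes that unadjusted count ran from 479 of 10546 (DEN3 at 10w) to 2293 of 10546 (all PB groups at 10w). In 4 of the 140 tests the groups did not overlap, and how many of all genes do so was not counted. Over the same comparisons the members' median difference lay between -0.27 and 0.04, against -0.01 to 0.02 for all genes. Igf1 had the narrowest span over these comparisons: its differences ran from -0.19 (DEN3 at 10w) to 0.11 (MP at 5w), and their 95% intervals stayed between -0.45 and 0.34. Those of Ghr stayed between -0.52 and 0.40. At 5w Igfals had smaller SEs than Igf1, such as 0.10 against 0.12 for PB alone. Cish intervals reached from -3.53 to 3.32, a span that covers differences of several fold.

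Phenobarbital alone, MC/PB against MC/water, was followed by 0 calls among the members at 5w (1.25% of all genes called, 2 members at an unadjusted p under 0.05) and 0 at 10w (2.26%, 1 member). Of all genes, 1137 of 10491 at 5w and 1481 of 10546 at 10w were under that unadjusted p. Cish, the STAT5-driven inhibitor of cytokine receptors, had signals of 987, 912, 668 and 1317 in MC/PB livers at 5w, against 419, 235, 110.2 and 387 in MC/water livers. The groups did not overlap, and the difference was 1.77 (SE 0.76, 95% interval 0.23 to 3.32, adjusted p = 0.358). At 10w Cish had 518, 605, 426 and 505 in MC/PB livers, against 1327, 1218, 122 and 693 in MC/water livers, which overlapped (-0.28, adjusted p = 0.898). The change of the effect between weeks was -2.05 for Cish (unadjusted p = 0.0409, adjusted p = 1). None of the members was called for PB by time (0% of all genes). At an unadjusted p under 0.05 stood 1 member and 490 of 10910 genes.

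Prlr was 1.06 higher in MC/PB than in MC/water livers at 5w (adjusted p = 0.42) and 0.92 at 10w (adjusted p = 0.414), with overlapping groups. Its signals at 10w were 302, 567, 720.4 and 1579 in MC/PB livers, against 301, 569, 393 and 201 in MC/water livers. Stat5b was lower at 10w, with 187, 203, 215 and 220.5 in MC/PB livers, against 356, 258, 269 and 296 in MC/water livers. These did not overlap, and the difference of -0.46 (SE 0.16) did not pass (adjusted p = 0.155). Igfbp1, Igfbp2, Igfbp3, Igf1, Igfals, Ghr and Socs2 overlapped at both weeks.

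Setting all 6 PB groups against MC/water gave 0 calls among the members at 5w (4.22% of all genes, 1 member at an unadjusted p under 0.05) and 0 at 10w (8.48%, 4 members). Of all genes, 1683 of 10491 at 5w and 2293 of 10546 at 10w were under that unadjusted p. At 10w those 4 members were all at lower values in the PB groups: Igfals (-0.36, 95% interval -0.60 to -0.11, adjusted p = 0.0607), Cish (-1.18, -2.04 to -0.32, 0.0796), Stat5b (-0.32, -0.57 to -0.06, 0.114) and Ghr (-0.23, -0.44 to -0.01, 0.2). The second Cish probe set was called in this comparison, at -1.34 (95% interval -2.14 to -0.55, adjusted p = 0.0305 in limma over all probe sets, of which 7.28% were called), so the probe sets disagree on the call. That probe set was under a signal of 100 on 24 of 62 arrays. Socs2, at -0.75 (adjusted p = 0.389), was called with the array set as a block (-0.78, adjusted p = 0.039) and with the replicate number as a block (-0.83, adjusted p = 0.0345). Within set 1 Socs2 was -0.81 (adjusted p = 0.296) and within set 2 -0.73 (adjusted p = 0.218). Cish was -0.64 in set 1 and -1.71 in set 2, and Igfals -0.37 and -0.32. Cish was called without 10w APAP/PB replicate 2, DEN30/PB replicate 4 or MC/water replicate 3, and Igfals without DEN30/PB replicate 4, MC/PB replicate 3 or TAA/PB replicate 1.

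Each initiator was set against MC/PB, so the 5 comparisons of a week share the same 4 control animals. None of the members was called at 5w for DEN3 (0.0381% of all genes), DEN30 (0.114%), TAA (0.0191%), MP (0.0572%) or APAP (0%), nor at 10w for DEN3 (0.019%), DEN30 (0.0284%), TAA (0.00948%), MP (0.0853%) or APAP (0.0664%). At an unadjusted p under 0.05 the members numbered 1, 2, 3, 3 and 2 at 5w and 2, 0, 1, 2 and 0 at 10w, in that order of initiators. All genes under that p numbered 544, 610, 590, 850 and 755 of 10491 at 5w. At 10w all genes under it numbered 479, 547, 486, 811 and 642 of 10546. Cish was the member with the widest differences. At 5w its signals were 1108, 149.6, 130, 107 and 142 in MP/PB livers, 1015, 184, 90.2 and 175 in DEN30/PB livers and 407, 120.2, 79.8 and 949 in APAP/PB livers, against 987, 912, 668 and 1317 in MC/PB livers. A high animal in each initiated group overlapped with MC/PB. The differences at 5w were -2.06 for MP (adjusted p = 0.386), -1.87 for DEN30 (0.694) and -1.78 for APAP (0.62).

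At 10w Cish signals were 220.1, 132, 242, 141 and 182 in TAA/PB livers and 211, 88.8, 279.9, 201 and 154 in MP/PB livers, against 518, 605, 426 and 505 in MC/PB livers. Every TAA/PB and MP/PB animal lay below every MC/PB animal, with differences of -1.39 (adjusted p = 0.999) and -1.41 (adjusted p = 0.499). How many of all genes separate groups of this size in the same way was not counted. Prlr at 5w had 249, 125, 87.5 and 331 in APAP/PB livers and 106, 104, 589.5, 202 and 203 in DEN3/PB livers, against 238, 516, 997 and 1362 in MC/PB livers. The lowest MC/PB animal lay below 2 APAP/PB animals, and DEN3/PB replicate 3 lay above 2 MC/PB animals. The differences were -1.73 (adjusted p = 0.288) and -1.59 (adjusted p = 0.386). Igfbp3 at 5w was 0.38 higher in DEN30/PB (adjusted p = 0.527), 0.36 in MP/PB (0.401) and 0.31 in TAA/PB (0.82) than in MC/PB livers.

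**Figure D3:**
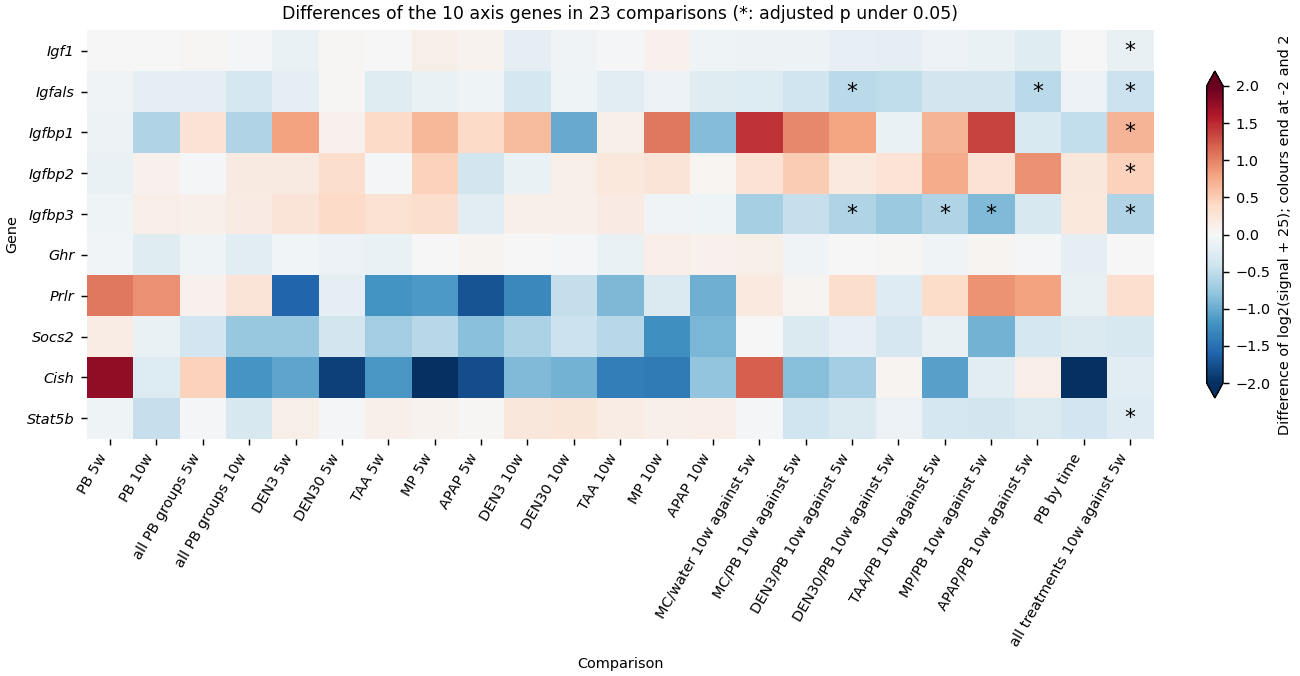
Difference of log2(signal + 25) for the 10 axis genes (rows) in 23 comparisons (columns), red for higher and blue for lower in the first-named group or at 10w; a star marks an adjusted p under 0.05 in limma. No star falls in the 14 comparisons within a week, 5 fall in comparisons of 10w with 5w by treatment (Igfbp3 in 3, Igfals in 2) and 6 in the mean over all treatments.

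Among the other pathway genes few were called within a week. With PB alone at 5w, Hnf4a, a hepatocyte transcription factor, was lower by 0.56 (adjusted p = 0.0116) as 1 of 21 signalling genes, and Pck1 was -0.72 (adjusted p = 0.00819) as 1 of 4 insulin-suppressed genes. Cyp3a9 was 1.58 higher (adjusted p = 0.0255) as 1 of 5 female-biased genes. With PB alone at 10w the female-biased Cyp2a1 was 1.12 higher (adjusted p = 0.00454) and 2 of 9 male-biased genes were lower, Obp3 (-2.56, adjusted p = 0.00865) and Hao2 (-0.84, adjusted p = 0.00845). The PB groups together at 5w were lower in Stat5a (-0.32, adjusted p = 0.0315), Hnf4a (-0.35, adjusted p = 0.0229) and Pck1 (-0.44, adjusted p = 0.0222). At 10w they were lower in Irs2 (-0.65, adjusted p = 0.0284) and Hao2 (-0.60, adjusted p = 0.00518). Higher in them at 10w were Stc1, an inhibitor of IGFBP proteolysis (0.95, adjusted p = 0.0144), Cyp2a1 (0.91, adjusted p = 0.000774) and Cyp3a2 (0.28, adjusted p = 0.0152). Stc1 signals were low, with a median of 119 and a lowest value of 4.99 over all arrays, so its difference is poorly read. For a single initiator 1 pathway gene was called, Onecut1, a hepatocyte transcription factor known as a growth hormone target, lower in MP/PB at 10w (-3.02, adjusted p = 0.0319).

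Among the variable members, Socs2 signals split by array set: they were 0.326-fold in set 1 relative to set 2, and lower in set 1 in 14 of 14 groups (log2 difference -2.78 to -0.83). In MC/PB livers at 10w, Socs2 had 297 and 266 in the set 1 animals (replicates 1 and 3), against 1577 and 1033 in the set 2 animals. Cish did not split in this way, at 0.838-fold and higher in set 1 in 5 of 14 groups. Igf1 was 0.835-fold, lower in set 1 in 14 of 14 groups, on the main probe set, but 1.01-fold on another. The sets were defined from all genes tested, these members among them, and how many genes split alike in every group was not counted. What the sets are is not given by the labels, and their part in the spread of Socs2 was not tested further.

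**Figure D4:**
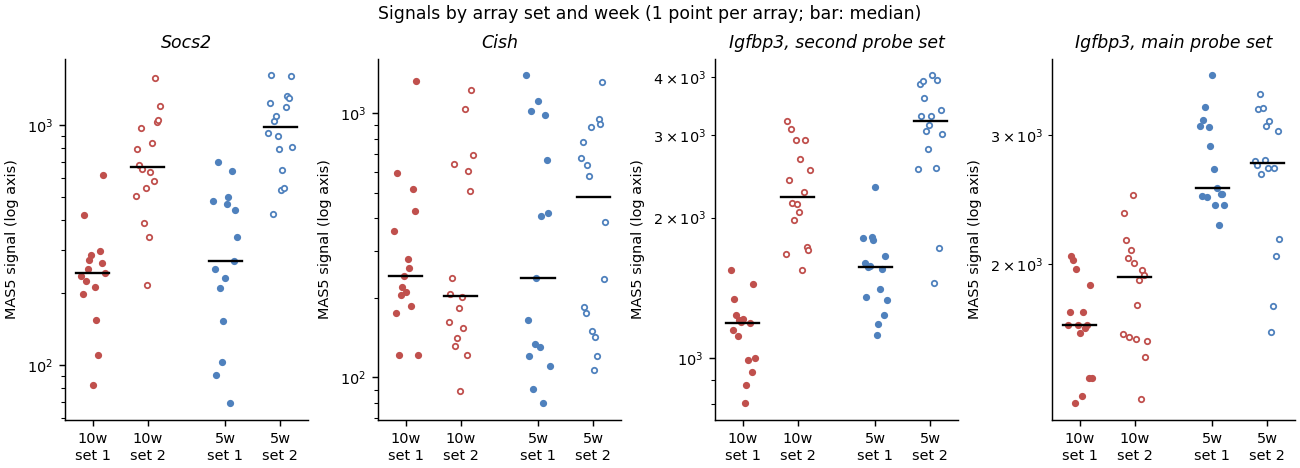
MAS5 signal on log axes by week and array set, with 10w left of 5w, filled points for set 1 and open points for set 2, and bars for medians. Socs2 and the second Igfbp3 probe set are lower in set 1 at both weeks, while Cish and the main Igfbp3 probe set overlap between the sets.

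Prlr and Ghr were related between the weeks across animals, and no relation passed for the other 8 members. Signals on the log2 scale were centred on the mean of group and array set, and 10w was related to 5w over the 31 animals by a permutation test within those cells, for 10 genes. For Prlr Pearson's r was 0.78 (adjusted p = 0.0057) and Spearman's rho 0.79 (adjusted p = 0.00375), with r of 0.80 in set 1, 0.77 in set 2 and 0.72 without the 2 farthest animals. For Ghr r was 0.71 (adjusted p = 0.0016) and rho 0.71 (adjusted p = 0.0014), with 0.73 in set 1, 0.70 in set 2 and 0.67 without the 2 farthest. Stat5b had an r of 0.63 (adjusted p = 0.0882). Socs2 (r = -0.08, with 0.08 in set 1 and -0.37 in set 2) and Cish (r = -0.15, with 0.14 in set 1 and -0.84 in set 2) had adjusted p = 0.682 by the same permutation test, as did Igf1 (r = 0.33), Igfbp1 (0.16) and Igfbp2 (0.18).

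In MC/PB livers the Prlr signals were 302, 567, 720.4 and 1579 at 10w, against 238, 516, 997 and 1362 at 5w, so these animals came in the same order at both weeks. The order also held in APAP/PB livers and changed in every other treatment. MC/water livers had 301, 569, 393 and 201 at 10w, against 512, 316, 280 and 165 at 5w. DEN30/PB replicate 4 was the lowest of its group at 10w (342) and the highest at 5w (876).

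**Figure D5:**
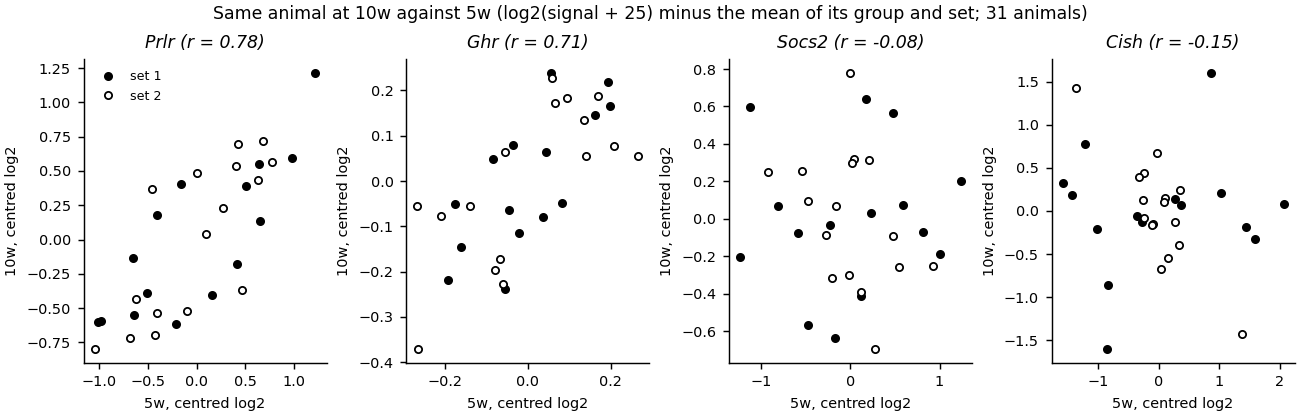
Each point is 1 of 31 animals, with its 10w value on the vertical and its 5w value on the horizontal axis, as log2(signal + 25) minus the mean of its group and array set. Prlr and Ghr rise along the diagonal (r of 0.78 and 0.71), and Socs2 and Cish show no such rise (r of -0.08 and -0.15).

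Of 90 relations between pairs of members, 45 at each week, 1 passed after adjustment. Igf1 rose with Ghr over the 31 animals at 10w, with r of 0.76 and rho of 0.77 (both adjusted p = 0.0018, permutation test), r of 0.81 in set 1, 0.76 in set 2 and 0.77 without the 2 farthest animals. At 5w the r of Igf1 with Ghr was 0.14 (adjusted p = 0.974), and the difference between the weeks was not tested. Socs2 with Cish had an r of 0.66 at 10w (adjusted p = 0.0864) and 0.56 at 5w (adjusted p = 0.328). Igfals with Ghr had 0.73 at 10w (adjusted p = 0.0864). Values centred this way still share array quality and scaling, and their part in this was not tested.

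The genes whose signals most resembled each member over the 62 arrays, by Pearson's r across all groups and without a test, were led by Igfals with S1pr1 (0.87) and Cish with Hhex (0.87). Igf1 came closest to C8g (0.86) and Carhsp1 (0.84), Igfbp3 to Mgp (0.82) and Aldh1a3 (0.80), and Socs2 to Vgll4 (0.83) and Nfia (0.80). Cish was followed by Rgs3 (0.81) and Igfals by Hdhd3 (0.84). Within groups the r of Cish with Hhex was 0.87 and that of Igfbp3 with Mgp 0.71. The remaining members had no close match: Stat5b with Ypel3 (0.64), Prlr with Myo7b (0.61), Igfbp1 with Zfp36 (0.58) and Irs2 (0.55), Ghr with Slc10a1 (0.57) and Igfbp2 with Samhd1 (0.52). The arrays share treatments, weeks and array sets, all of which enter these values.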

How the data were processed

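RNA of 62 rat liver samples was measured on Affymetrix arrays. The deposited table holds linear signal intensity values that the authors made with MAS5 version 5.0, per the submitters' processing notes; no source used here gives a scaling target. Since the 2% trimmed mean was 500.23 to 500.27 on every array, values were not rescaled. The number of arrays limits the precision. Symbols came from the platform annotation, and probe sets with several symbols (436) or none (9831, 57 of them controls) were not tested.

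Signals were used as log2(signal + 25). Probe sets at 100 or more on at least 4 arrays of a fit were kept, and the one with the highest mean stood for its gene. That gave 10491 genes for 5w, 10546 for 10w and 10910 for both weeks together. Contrasts were tested two-sided with limma 3.58.1 under R 4.3.3 (trended eBayes), with Benjamini-Hochberg adjustment over all genes tested, on the 31 arrays of a week or on all 62 for time. Correlations used 100000 two-sided permutations within cells of group and array set (numpy 2.4.6).

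All 10 members were named in every comparison, with called genes of each pathway list and the 2 genes most like each member. The members and lists were chosen with earlier results of these data known. The series' design takes both weeks from the same animals, and equal treatment and number were read as 1 animal: residuals of the 31 pairs correlated at 0.205 to 0.393, every array most strongly with its own animal's number. The animal was therefore a block in an alternative (consensus correlation 0.315). Within a week, equal numbers are different animals. Every same-numbered pair correlated above 0.1 only for DEN3 and DEN30 at 5w and APAP at 10w. The fits were tested on simulated data. Alternatives changed the offset, the filter, the normalization, the probe sets and the samples fitted, added blocks for animal, replicate number or array set, kept 1 array set, or left out each array. Within a week, p-values measure the spread between animals. The main fits over both weeks took the 2 arrays of an animal as independent. Their p-values, those over all treatments included, do not use the pairing.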

Additional observations from a re-analysis of the deposited data

Results flagged for a closer look

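In 6 of 140 combinations of gene and group, 1 animal stood apart from the others by more than Dixon's 95% critical value, a share close to the 5% that chance gives. Igfbp1 was 5064 in DEN3/PB replicate 3 at 5w, against 282 to 523 in the other animals of the group. Igfbp2 was 20.4 in DEN3/PB replicate 5 at 5w, with the others at 121 to 154; a signal this far under the minimum is poorly read. Igfbp3 was low in DEN30/PB replicate 3 at both weeks, at 1289 at 10w (others 2024 to 2154) and 2468 at 5w (others 3264 to 3421). Ghr was 7836 in MP/PB replicate 2 at 10w, where the others had 10680 to 11681. Cish was 1108 in MP/PB replicate 1 at 5w, with the others at 107 to 149.6.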

How the results depend on the processing

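Of 508 recomputed counts of called members, 471 stayed within 1.5 times the reported one and 37 did not. Most reported counts were 0, and a 0 that stayed 0 is among the 471. Of the differences called in the main fits, 0 reversed in sign, and the signs of the others were not followed. For PB at 5w, fitting only the groups compared called 1 member (Cish), as did TAA at 10w (1, Cish). All PB groups at 10w had 1 with the array set block, quantile normalization or the replicate block, and 0 to 2 when single arrays were left out. By time, MC/water had 1 with the array set block and 1 with the replicate block (animal); MC/PB had 3 with the animal block. DEN30/PB had 1 with the array set block, 1 with quantile normalization, 2 with the animal block, and 0 to 1 without single arrays. TAA/PB had 3 and MP/PB 3 with the animal block, and TAA/PB 0 to 2 without single arrays. In set 1 alone and in set 2 alone DEN3/PB, TAA/PB, MP/PB and APAP/PB had 0. APAP/PB had 0 with only the groups compared, and 0 to 1 without single arrays. Over all treatments set 1 alone had 2. The replicate number as a block changed no other member count within a week. The animal block called 154 to 962 of all genes by treatment, against 0 to 316 without it. Limits are the 4 or 5 animals a group, the low signals of Igfbp2, and probe sets that disagree on a call for Prlr over all treatments and for Cish in all PB groups at 10w.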
